A study of Mus musculus with 6 samples.

Results

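The genes described here are Ccn1 and Ccn2, matricellular proteins long known as CYR61 and CTGF, and 8 genes of the Hippo-YAP pathway to which they respond, namely Amotl1, Amotl2, Ajuba, Lats2, Axl, Yap1, Wwtr1 and Tead1. All probes whose platform gene symbol was one of these 10 were taken, and the group was chosen by the difference between KO and CON seen earlier in these same arrays for Ccn1 and Ccn2, so its changes are given as a description and without a test. Of the 10 genes, 9 had a probe, and together they had 13 of the 25697 probes on the array. A detection p below 0.01 on at least 3 of the 6 arrays was reached by 8 of those probes, which belonged to 6 genes (Ccn1, Ccn2, Amotl2, Axl, Yap1 and Wwtr1), among 7461 genes in all.

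Total RNA of epidermal keratinocytes was profiled on Illumina MouseRef-8 v2.0 beadchips, a 1-colour array, with 3 KO arrays and 3 CON arrays. KO mice were Med1 fl/fl and carried Cre recombinase driven by the keratin 14 promoter, which is active in basal keratinocytes, so that Med1, a subunit of the Mediator coactivator complex, was excised in these cells. CON mice were Med1 fl/fl without Cre, and both groups were 10 wk of age and of C57BL6 background. Each group held cells from 2 mice, the labels leave unsaid how the mice were divided over the arrays, and p-values therefore measure only the spread between arrays. According to the study, CON skin was resting (telogen) at this age and KO skin had moved toward growth (anagen), so hair cycle phase and genotype cannot be told apart in these arrays. By staining, the study also found less TGFβ ligand in KO than in CON skin in anagen. From the microarray comparison of this same series, it listed Ctgf (Ccn2), Cyr61 (Ccn1) and Igfbp3 among TGFβ targets reduced in KO keratinocytes. Apart from the arrays, it reported less CTGF protein in KO skin by staining, and lower Ctgf mRNA by qPCR in KO skin, normal and wounded. Lower CTGF mRNA was also reported after MED1 silencing in cultured human keratinocytes.

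In the Hippo pathway the kinases MST and LATS, with their adaptors, phosphorylate the coactivators YAP and TAZ and hold them in the cytoplasm. When the kinases are inactive, YAP and TAZ enter the nucleus and bind TEAD proteins on DNA, and Ccn1 and Ccn2 are the textbook genes switched on by that complex. In skin, YAP is known for its part in the growth of basal keratinocytes, and the CCN proteins are secreted into the matrix, where they bind integrins.

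The TEAD recognition motif CATTCC was searched on both strands in the 250 bases before the start of each gene in RefSeq (GRCm38.p6), and the windows that hold it are shown because the group was put together around TEAD-dependent transcription. A window was at hand for 8 of the 10 genes, not for Ccn2 or Tead1, and 6 of those 8 (75.0%) held the motif on either strand, against 3880 of 27025 genes (14.4%). Amotl1 and Lats2 were the genes without it. The share was 11 of 35 (31.4%) in the other Hippo pathway genes and 3 of 11 (27.3%) in the other YAP and TAZ target genes listed. The window of Ccn1 is given whole and the others as 30 bases around the motif, each on the strand of its gene, with the motif in capitals, as its reverse complement where it lay on the other strand.
Ccn1, chr3:145649986-145650235, minus strand: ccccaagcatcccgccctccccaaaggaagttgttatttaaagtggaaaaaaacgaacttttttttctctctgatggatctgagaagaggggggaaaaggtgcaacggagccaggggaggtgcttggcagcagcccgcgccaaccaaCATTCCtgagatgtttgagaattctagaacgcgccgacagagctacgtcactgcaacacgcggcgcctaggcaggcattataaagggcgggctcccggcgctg
Amotl2, chr9:102717727-102717756, plus strand: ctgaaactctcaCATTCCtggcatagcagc
Ajuba, chr14:54577808-54577837, minus strand: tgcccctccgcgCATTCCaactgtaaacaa
Ajuba, chr14:54577830-54577859, minus strand: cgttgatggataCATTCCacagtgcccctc
Axl, chr7:25788949-25788978, minus strand: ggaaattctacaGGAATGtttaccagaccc
Yap1, chr9:8004720-8004749, minus strand: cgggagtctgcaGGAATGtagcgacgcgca
Wwtr1, chr3:57576029-57576058, minus strand: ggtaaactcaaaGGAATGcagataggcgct
The motif began 103 bases before the start of Ccn1, 65 before Amotl2, 233 before Axl, 141 before Yap1, and 164 and 186 before Ajuba. Wwtr1 has more than 1 annotated start, and the motif lay 136 and 170 bases before them. A match of 6 bases describes the window and is not a measured binding site, and the arrays carry no information on TEAD occupancy. The share in the group describes a list chosen around TEAD and is not read as enrichment.

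Values below are log2 of the intensity after background correction and quantile normalization, and changes are KO minus CON with their standard error (SE). The largest change in the group was that of Ccn2, a secreted factor that acts on matrix and cell adhesion. Its probe, detected on all 6 arrays, read 8.97, 8.97 and 9.03 on the KO arrays, against 12.25, 12.23 and 12.11 on the CON arrays. Before any normalization the deposited intensities were 477.1, 608.5 and 674.6 in KO and 5634.6, 4574.2 and 3983.6 in CON. Every KO array lay far below every CON array on either scale. Ccn2 averaged 8.99 ± 0.04 in KO and 12.20 ± 0.08 in CON (SD, n = 3 each), a change of -3.21 (SE 0.09), or 9.23-fold lower in KO. Only 5 of the 7461 genes had a more negative change. Across the 18 other ways of processing or leaving out an array that were tried, the change of Ccn2 stayed between -3.25 and -3.01. Those that altered only the filter, moderation, replicate block or test could not move it, since they kept the same normalized values.

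Ccn1, the closest relative of Ccn2 in the group and likewise secreted, had 3 probes. The brightest read 6.29, 6.34 and 6.19 in KO and 7.96, 7.45 and 7.59 in CON, or 145.9, 169.2 and 165.9 in KO and 390.2, 257.7 and 256.0 in CON before normalization. Again no KO array reached a CON array. The means were 6.27 ± 0.08 in KO and 7.67 ± 0.26 in CON (SD, n = 3 each), a change of -1.40 (SE 0.14), or 2.63-fold lower in KO, and Ccn1 stood at rank 56 of 7461 genes from the most negative change. The second probe, at 5.81, 5.40 and 5.91 in KO and 6.65, 6.70 and 6.99 in CON, gave a change of -1.07 (SE 0.16), or 2.10-fold lower, also without overlap. The third probe was not detected on any array and gives no fold. The size of the Ccn1 change depended on the background correction: it was -0.82 without one, -0.83 with the authors' normalized values and -1.10 with an offset of 50 in place of 16, and lay between -1.51 and -1.25 when single arrays were left out. In RNA of a whole cell isolate, fewer cells that express a gene and less RNA per cell cannot be told apart.

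The arrays of the other 4 members that passed the filter, Yap1, Wwtr1, Axl and Amotl2, overlapped between KO and CON. Yap1, the coactivator held back by LATS, read 8.96, 9.01 and 8.80 in KO and 9.08, 9.21 and 8.69 in CON. The highest and the lowest values were both from CON arrays, and the means of 8.92 ± 0.11 in KO and 8.99 ± 0.27 in CON (SD, n = 3 each) differed by -0.07 (SE 0.14), a change that turned to 0.04 without CON replicate 2. Wwtr1, which encodes the related coactivator TAZ, read 6.40, 6.29 and 6.34 in KO and 6.20, 6.38 and 6.11 in CON on its brighter probe, with a change of 0.11 (SE 0.10). Its dimmer probe, detected on 3 KO and 2 CON arrays, gave 0.51 (SE 0.21), and here too 1 CON array, at 5.83, lay within the KO range of 5.72 to 6.21. Neither coactivator transcript separated KO from CON on any of its probes.

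Axl, a receptor tyrosine kinase of the TAM family and a known YAP target, read 11.42, 11.50 and 11.15 in KO and 11.47, 11.76 and 11.64 in CON, for means of 11.36 ± 0.19 in KO and 11.62 ± 0.15 in CON (SD, n = 3 each) and a change of -0.26 (SE 0.13). KO replicate 2 exceeded CON replicate 1, so the groups overlapped. Amotl2, a scaffold of the angiomotin family that binds YAP and is itself a YAP target, read 6.47, 6.22 and 6.40 in KO and 6.49, 6.58 and 6.44 in CON, a change of -0.14 (SE 0.10). KO replicate 1 lay above CON replicate 3.

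For the remaining 4 genes the array gave little or no measurement. Ajuba, a LIM-domain scaffold that binds LATS kinases, was detected on no KO array and on 2 CON arrays with its brighter probe, which read 5.18, 5.09 and 4.89 in KO and 5.28, 5.14 and 5.82 in CON, and it did not pass the filter. Its other probe was undetected throughout. The kinase gene Lats2 and the DNA-binding partner Tead1 stayed at background on all 6 arrays, which leaves both without a measured change. Amotl1, the other angiomotin-like scaffold, had no probe under that name here.

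**Figure D1:**
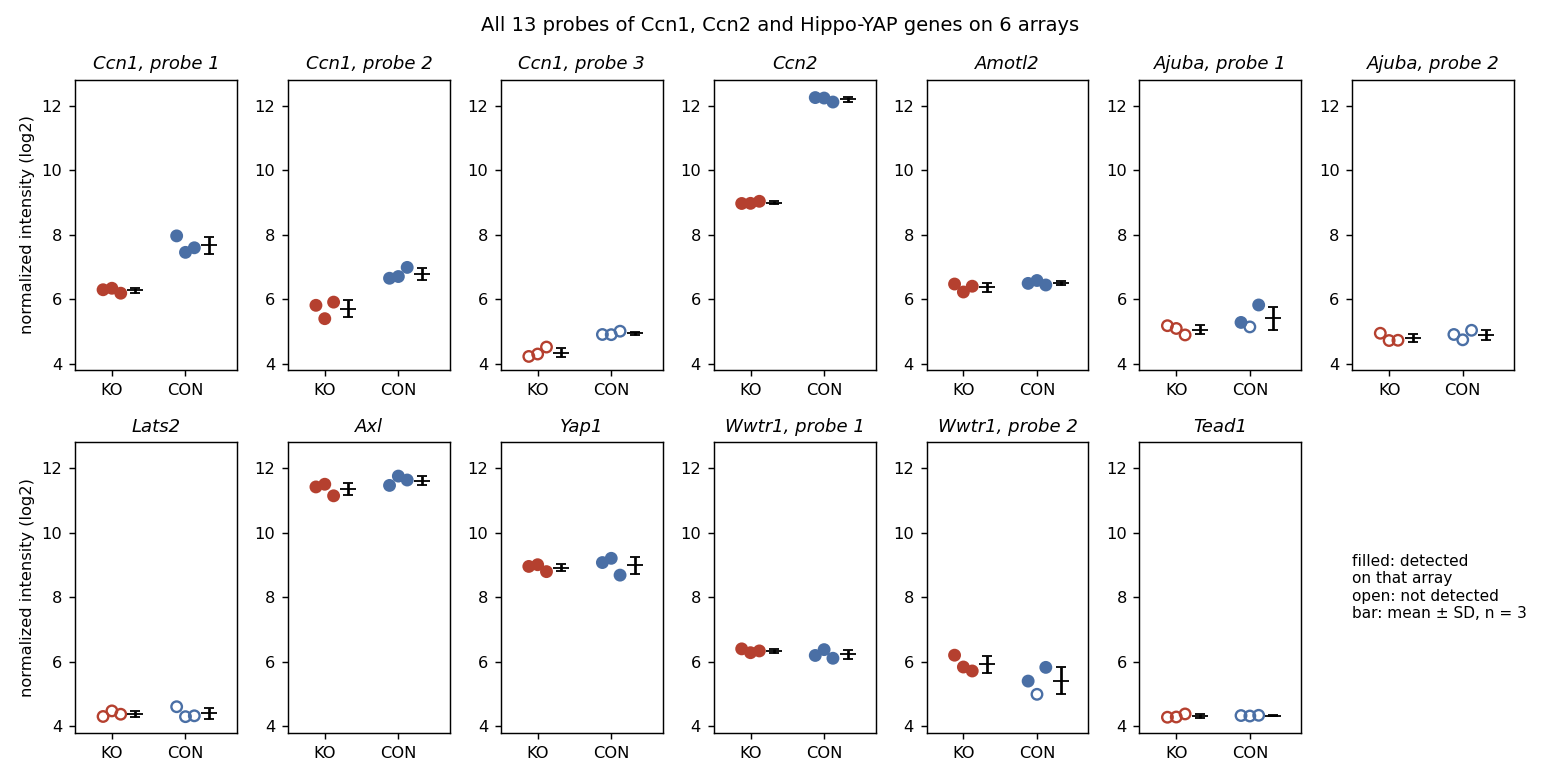
Normalized intensity (log2, vertical axis) of all 13 probes of the group on each of the 3 KO (red) and 3 CON (blue) arrays, with mean ± SD beside the points and open symbols where the probe was not detected on that array. KO and CON arrays are clearly apart for Ccn2 and for both detected Ccn1 probes, and overlap for Amotl2, Axl, Yap1 and Wwtr1.

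Of the 6 genes that passed the filter, KO arrays lay wholly below CON arrays for 2 (Ccn1 and Ccn2) and wholly above for 0. Among all 7461 genes these shares were 22.5% and 22.7%, and since the contrast chose the members nothing is read from their count. The median change over the 6 genes was -0.20, beside -0.00 over all genes, whose quartiles were -0.22 and 0.22. The other 4 members thus lay near that middle range, at ranks 1625 (Axl), 2493 (Amotl2), 3063 (Yap1) and 4784 (Wwtr1) of 7461 from the most negative change.

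**Figure D2:**
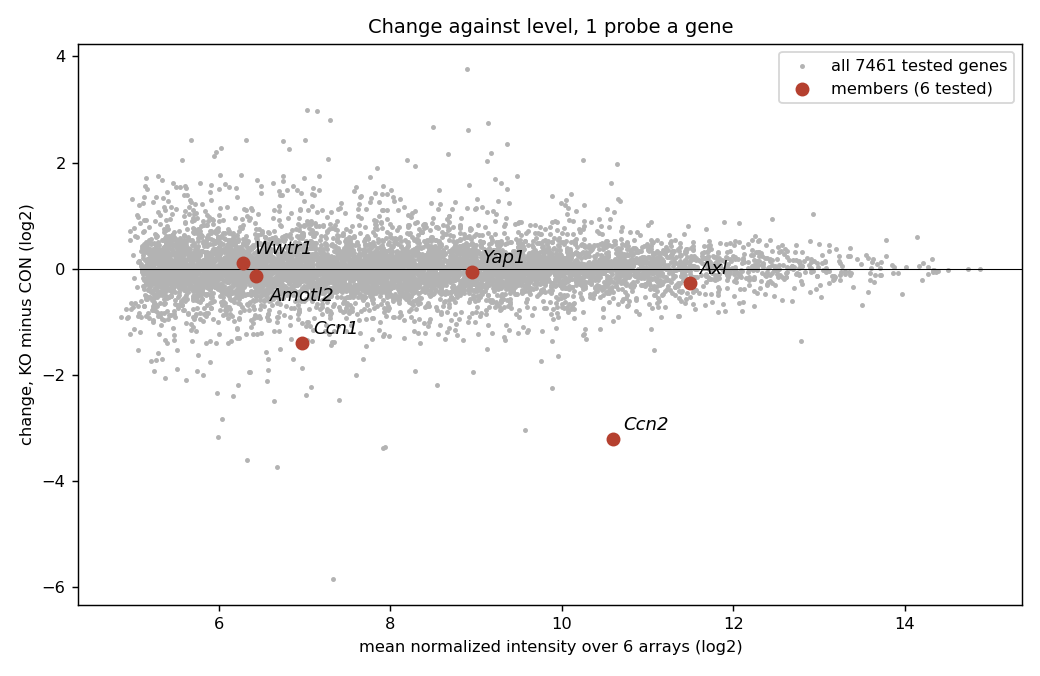
Change between KO and CON (log2, vertical axis) against the mean normalized intensity over the 6 arrays (log2, horizontal axis) for 7461 genes (grey) and the 6 members tested (red). Ccn2, at -3.21, lies below the other genes of its intensity, while Wwtr1, Amotl2, Yap1 and Axl lie within the grey band.

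**Figure D3:**
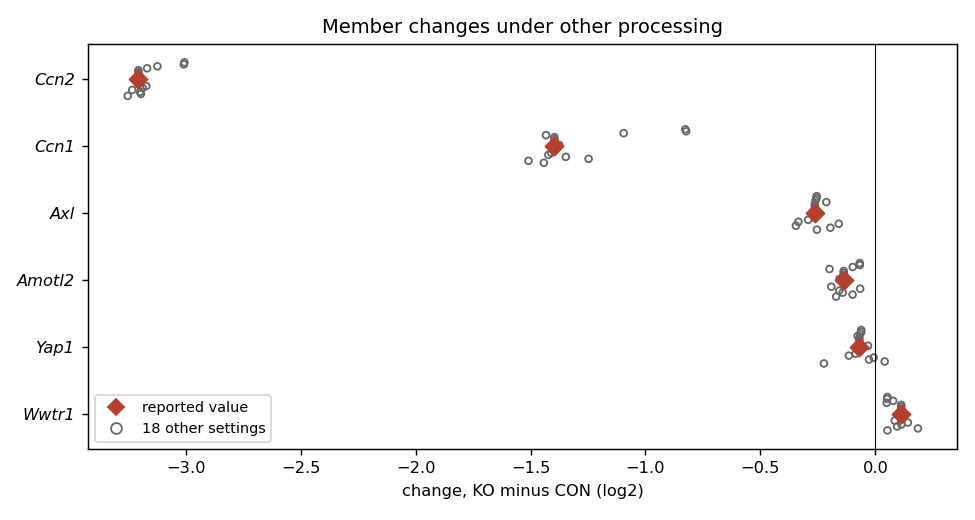
Change of the 6 members (KO minus CON, log2, horizontal axis) as reported (diamonds) and under the 18 other settings (circles). Ccn2 stays between -3.25 and -3.01, Ccn1 spreads from -1.51 to -0.82, and Yap1 falls on both sides of 0. Settings that alter only the filter, moderation, replicate block or test leave each value in place by construction.

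Med1 itself read 5.85, 5.71 and 6.13 in KO and 7.09, 6.81 and 6.69 in CON on its only tested probe, without overlap. It was 1.95-fold lower in KO (change -0.96, SE 0.15, limma's adjusted p = 0.0018), and whether this probe lies in the excised exons is not known here. All p-values here are two-sided, from limma, and adjusted by Benjamini-Hochberg over the 10386 tested probes, with a threshold of 0.05. Correlations between arrays across probes were 0.989 to 0.993 within groups and 0.965 to 0.968 between them.

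Among the other Hippo pathway genes, Tead2, Limd1, Mob1a and Frmd6 fell. Of 41 further pathway genes, 30 were on the array and 19 were tested, with 4 lower in KO, 0 higher and 15 not called, and a median change of 0.03. Among all 7461 genes 14.1% were higher and 14.7% lower in KO. At an unadjusted p below 0.05 limma called 2 of the 19 tested pathway genes higher and 5 lower. The methods' t-test called 1 higher and 5 lower before adjustment, and 0 higher and 4 lower after it. Tead2, a relative of Tead1 that likewise carries YAP and TAZ to DNA, fell most. It read 5.80, 6.10 and 5.46 in KO and 6.85, 7.10 and 7.11 in CON, 2.35-fold lower in KO (change -1.23, SE 0.16, limma's adjusted p = 0.000885). Every KO array was below every CON array, and the call held under all 18 settings. Tead3 and Tead4, at 0.05 and -0.03, did not pass the test.

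Limd1, a LIM protein of the same family as Ajuba, read 8.96, 8.55 and 8.86 in KO and 9.61, 9.43 and 9.51 in CON, 1.65-fold lower (change -0.72, SE 0.13, limma's adjusted p = 0.00354). Mob1a, the adaptor that activates LATS, read 8.33, 8.69 and 8.67 in KO and 8.92, 9.15 and 9.08 in CON (change -0.48, SE 0.13, limma's adjusted p = 0.0223). Frmd6, an upstream FERM-domain protein, read 11.38, 11.33 and 11.34 in KO and 11.82, 11.62 and 11.81 in CON (change -0.40, SE 0.10, limma's adjusted p = 0.0163). The KO and CON arrays of these 3 genes did not overlap, but the calls of Mob1a and Frmd6 ended with median scaling (adjusted p of 0.078 and 0.22), that of Mob1a also with the methods' t-test after adjustment (0.087), and both when single arrays were left out (KO 1, CON 2 or CON 3 for Mob1a, KO 2, KO 3 or CON 3 for Frmd6). Among the genes not called, the kinase gene Stk4, which encodes MST1, changed by -0.11 and its adaptor Sav1 by 0.03. Vgll4, a cofactor that competes with YAP for TEAD, had the most positive value of the list, 0.64 (SE 0.26, limma's adjusted p = 0.101). Wwc1, which encodes KIBRA, had 0.37 on its brighter probe (limma's adjusted p = 0.0994) and 0.39 on another (adjusted p = 0.0252), so its probes fell on either side of the threshold.

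Among other genes known as YAP and TAZ targets, Igfbp3 and Nt5e fell most, and the list as a set was not tested. Of 17 listed, 14 were on the array and 10 were tested, with 3 lower in KO, 1 higher and 6 not called, and a median change of -0.30. The shares over all 7461 genes were 14.7% lower and 14.1% higher. Igfbp3, a secreted binding protein of insulin-like growth factors, read 8.64, 8.83 and 8.82 in KO and 10.90, 11.20 and 10.94 in CON. It was 4.78-fold lower in KO (change -2.26, SE 0.12, limma's adjusted p = 7.92e-06). Nt5e, the ectonucleotidase CD73, read 8.25, 8.30 and 8.55 in KO and 10.07, 9.92 and 9.65 in CON. It was 2.85-fold lower (change -1.51, SE 0.14, limma's adjusted p = 0.000119), and its other probe gave -1.06.

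Ccdc80, a secreted matrix protein, was detected on 3 CON arrays and on no KO array, so only a bound can be given. It was at least 1.07-fold lower in KO, where the dim side is taken at the lowest detected signal of each array. Ccdc80 passed the filter through its CON arrays alone. Its call (limma's adjusted p = 0.00158) thus rests on KO values at background and is not read as support. With detection required on all 6 arrays, 2 of the listed targets were lower in KO. Gadd45a, a stress-response gene, read 7.74, 7.57 and 7.91 in KO and 7.22, 7.36 and 7.48 in CON, without overlap. It was 1.31-fold higher (change 0.39, SE 0.12, limma's adjusted p = 0.0443), a call that ended under 9 of the 18 settings, among them leaving out KO 1, KO 3, CON 1 or CON 2, and its other probe had 0.32 (limma's adjusted p = 0.128). Ankrd1, which is a standard YAP readout beside Ccn1 and Ccn2, was not detected on any array, nor were F3, Foxf2 and Tgfb2. The study measured Tgfb2 by qPCR and reported it lower in KO keratinocytes, which these arrays cannot address.

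Axl belongs to the TAM receptors, whose ligands are GAS6 and protein S, and 3 of the 4 other genes of that set fell. All 4 were tested, with 3 lower in KO, 0 higher and a median change of -0.52. Over all 7461 genes 14.7% were lower and 14.1% higher, and nothing is read from a count of 4 chosen genes. At an unadjusted p below 0.05 limma and the methods' t-test each called 0 higher and 4 lower. Mertk read 5.70, 5.87 and 5.91 in KO and 6.64, 7.08 and 7.06 in CON, 2.15-fold lower (change -1.10, SE 0.14, limma's adjusted p = 0.00068). The ligand gene Gas6 read 11.19, 11.15 and 11.23 in KO and 11.80, 11.95 and 11.83 in CON, 1.59-fold lower (change -0.67, SE 0.09, limma's adjusted p = 0.00121). Tyro3 was 1.29-fold lower (change -0.37, limma's adjusted p = 0.0217), a call that ended with median scaling (0.095) and with trended and robust moderation of the variance (0.051), and without KO 3, CON 2 or CON 3. Pros1, the gene of protein S, changed by -0.36 (limma's adjusted p = 0.0572). The difference between Axl and its relatives was not tested.

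CCN proteins act through integrins, LRP receptors and syndecan-4. Of 11 such receptor genes, all on the array, 6 were tested, with 0 lower in KO, 1 higher and a median change of -0.30. The shares over all 7461 genes were 14.7% lower and 14.1% higher. At an unadjusted p below 0.05 limma called 2 lower and 1 higher. The methods' t-test called 1 lower and 1 higher before adjustment, and 0 lower and 0 higher after it. The integrin genes Itgav, Itgb5 and Itga6 had -0.31, -0.29 and -0.35 and Sdc4 -0.31, none past the threshold. Itgb2, an integrin chain of leukocytes, was detected on 3 KO arrays and on no CON array and was at least 1.13-fold higher in KO (limma's adjusted p = 0.042), but the call ended under 13 of the 14 settings in which it was tested, among them leaving out any CON array. Itgb2 passed the filter through its KO arrays alone, so its call rests on CON values at background and is not read as support. Of the other CCN genes, Ccn4 and Ccn5 were on the array and neither was detected.

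**Figure D4:**
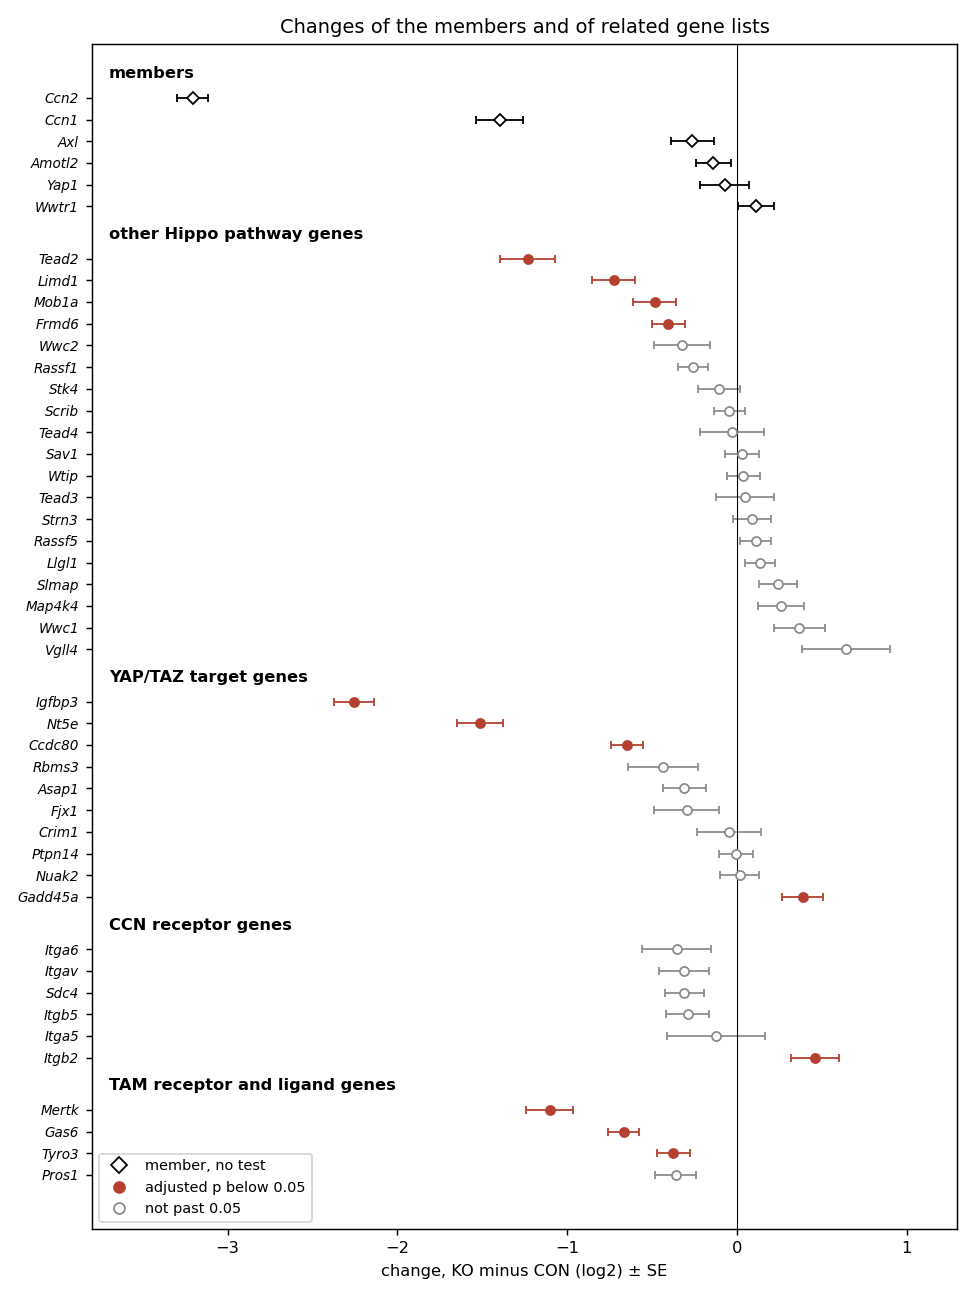
Change between KO and CON (log2, horizontal axis) with its SE for the 6 members (diamonds, no test) and the tested genes of 4 related lists, filled where limma's adjusted p was below 0.05. Ccn2, Igfbp3, Nt5e, Ccn1, Tead2 and Mertk are the genes below -1.

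Some markers of other cells moved in the same arrays. Of 8 fibroblast markers, 3 were detected. The summed linear intensity of all 8, undetected ones at background included, was 254 to 341 in KO and 485 to 586 in CON. The sums of the lists below likewise take in undetected markers. Col1a1, Col1a2, Col3a1, Pdgfra and Lum were undetected on all arrays, while all 3 detected markers were lower in KO. These were Dcn (-1.23, limma's adjusted p = 0.000851), Serpinf1 (-1.30, 0.000301) and Fbln1 (-0.49, 0.0413). The call of Fbln1 ended under 10 settings, each single array but CON 3 among those left out, and its other probe had -0.22 (adjusted p = 0.403). Melanocyte markers, 4 of 5 detected with Tyr at background, summed to 280 to 300 in KO and 625 to 677 in CON, with Dct (-1.18, limma's adjusted p = 9.52e-05), Pmel (-0.89, 0.00155) and Mlana (-0.65, 0.014, ended with the methods' t-test after adjustment) lower.

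The sums for T cell and Langerhans cell markers, 5 of 6 detected without Itgax, were 2408 to 2862 in KO and 2137 to 2361 in CON. Cd3d (0.54, limma's adjusted p = 0.004) and Cd3e (0.36, 0.0318, ended under 8 settings, each single array but CON 3 among those left out) were higher in KO and Cd207 (-0.47, 0.013, ended with median scaling) was lower, with -0.08 on its other probe. Endothelial markers summed to 82.9 to 100.3 in KO and 74.4 to 104.6 in CON, with Pecam1, Cdh5, Emcn and Esam undetected and no gene at an unadjusted p below 0.05 by limma or the methods' t-test. Of 7 smooth muscle markers only Acta2 was detected, 1.96-fold higher in KO (0.97, limma's adjusted p = 0.000256), with 0.19 on its other probe (adjusted p = 0.235). Their part in the levels of Ccn1, Ccn2 and the lists above was not tested.

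Keratinocyte markers were bright on every array, and their sum was 66369 to 68588 in KO and 73906 to 77166 in CON. Krt5 was lower in KO (-0.68, SE 0.10, limma's adjusted p = 0.00137), and so was Trp63 (-0.31, 0.0472), whose call ended under 12 of 18 settings, including each single array left out. Krt1 and Krt10 had -0.27 and -0.03 and were not called. Krt14 was at rank 2 in brightness on all 6 arrays, so quantile normalization gave it the same value everywhere. The part of Krt5 and Trp63 in the levels of the members was not tested either.

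The genes whose profile over the 6 arrays was most like that of Ccn2 and of Ccn1 were ranked by the root mean square difference of the centred log2 values among 7460 other genes, as a description only. Nearest to Ccn2 was Wfdc3, a gene of the whey acidic protein family, at 0.15 and 8.21-fold lower in KO. It read 7.92, 8.26 and 7.97 in KO and 11.07, 11.10 and 11.09 in CON. Next were Gpha2, a glycoprotein hormone subunit, at 0.18 and 10.2-fold lower, and Ifitm6, an interferon-induced membrane protein family member, at 0.18 and at least 5.04-fold lower. Ifitm6 was undetected on every KO array, so its distance and its place rest on KO values at background.

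Nearest to Ccn1 were the peptide hormone gene Pyy (0.11, 2.75-fold lower in KO), the complement gene C2 (0.14, 2.40-fold lower) and the alarmin gene Il33 (0.14, 2.72-fold lower). Il33 read 6.72, 6.62 and 6.41 in KO and 8.11, 7.80 and 8.17 in CON. All 6 neighbours had KO arrays wholly below CON arrays, which follows from how they were chosen.

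**Figure D5:**
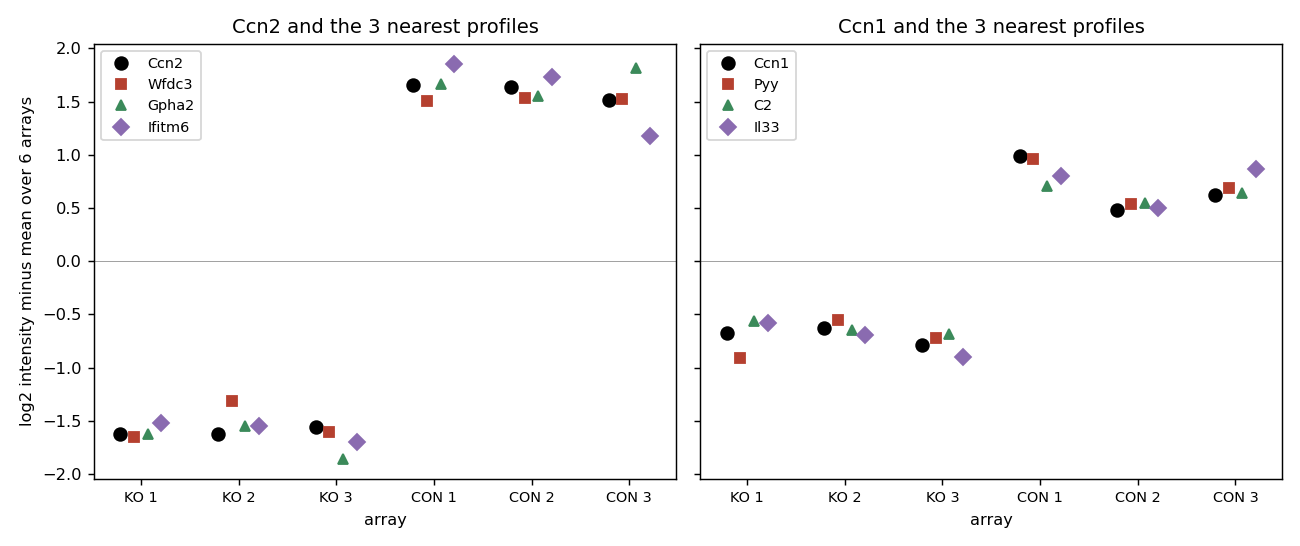
Log2 intensity minus the mean over 6 arrays (vertical axis) on the 3 KO and 3 CON arrays for Ccn2 (left) and Ccn1 (right), each with its 3 nearest genes. All points are below 0 on KO arrays and above 0 on CON arrays.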

How the data were processed

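The authors deposited linear probe intensity values from GenomeStudio (the submitters' processing notes name version 2011.1) without background subtraction or normalization, each with a detection p-value, which the authors deposited beside it, and a second table of intensity values normalized in GenomeStudio, with the algorithm not named in the sources used here. The first table gave all values in the text, the second an alternative. Columns were tied to samples by their names.

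Intensities were background-corrected from the detection p-values, given an offset of 16, quantile normalized and log2 transformed with neqc of limma (version 3.58.1, R 4.3.3). The offset makes changes of dim probes smaller. Between 9866 and 10636 probes per array (38.4% to 41.4%) were detected (p below 0.01), and the median intensity was 105.7 to 117.3. The number of arrays limits the precision. Probes detected on at least 3 of 6 arrays were tested (10386), with the brightest tested probe for each gene. KO was compared with CON by lmFit and eBayes without covariates. The code was tested on simulated data.

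Symbols came from the platform annotation: 23978 probes had 1 symbol, 1719 none and 0 several, and 23962 matched RefSeq (GRCm38.p6). The members and lists were chosen with earlier results of these data known, so no list is independent evidence. Named were all members, Med1, called genes of each list (at most 8 a direction), keratinocyte markers, called markers of other cells, and the 3 nearest profiles of Ccn2 and Ccn1; further genes of a list were named for context after their values were seen. Alternatives changed normalization, background correction, offset, filter, moderation, array weights, replicate block and test, and left out each array.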

Additional observations from a re-analysis of the deposited data

How the results depend on the processing

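Of 31 named genes outside the group, 21 kept their call in all settings run for them, up to 18, and 10 lost it in some. None of these 31, nor Ccn1 or Ccn2, reversed direction in a setting run for it, and other called genes were not checked for this. Settings of filter, moderation, replicate block or test alone could not change a direction. Probes higher in KO numbered 1397, and 788 with median scaling; probes lower numbered 1452, 901 with median scaling and 949 with the methods' t-test after adjustment. Leaving out single arrays gave 929 to 1283 higher (929 without KO replicate 2) and 1053 to 1193 lower. Other Hippo pathway genes higher in KO were 0, but 1 with the authors' normalized values, without background correction, with an offset of 50, with the replicate block, with the methods' t-test before adjustment and without CON replicate 1 (0 to 1 over single arrays). Those lower were 4, and 2 with median scaling (2 to 4 over single arrays, 2 without CON replicate 3). YAP and TAZ target genes higher were 1, and 0 with median scaling, no filter, a filter of 1 array, array weights and the methods' t-test after adjustment (0 to 1 over single arrays). Those lower were 3, and 2 with detection required on all 6 arrays (2 to 4 over the 18 settings, 2 to 3 over single arrays). The cause of these shifts was not tested.

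The replicate block gave 1241 probes higher and 1277 lower. Deviations of KO and CON arrays of 1 replicate number correlated at -0.03, 0.07 and -0.05, so no shared deviation by number was seen. These correlations cannot settle whether arrays of 1 number shared a litter or a preparation. Probes near background, such as those of Ajuba, Lats2 and Tead1, give no usable change at 3 arrays a group.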
